A study of Homo sapiens with 20 samples.

Results

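The data described here are the microarray signals of 10 human genes that break down, anchor or relay second messengers, of 20046 genes that the array's annotation names. They are the cyclic AMP phosphodiesterases PDE4A, PDE4B, PDE4D, PDE7A and PDE7B, the kinase anchor AKAP12, the arrestins ARRB1 and ARRB2, the inositol trisphosphate receptor ITPR2 and the inhibitory G protein subunit GNAI3. Of these, 9 have 18 probes in the supplied annotation, 13 of which were detected on at least 10 of 20 arrays and were tested. Each of the 9 genes has at least 1 tested probe. ARRB2 has no probe in that annotation, so it has no signal here and enters only the count of promoter windows below. The genes were chosen with their responses to wound fluid already known, so those responses are given as a description. A call below says only that a change passed a fixed threshold, and calls and their counts support nothing beyond themselves.

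A panel of 5 established triple-negative breast cancer (TNBC) cell lines was compared, each grown from tumor cells that lack estrogen, progesterone and HER2 receptors. By the study's classes, BT-549, MDA-MB-157 and MDA-MB-231 are mesenchymal-like, and SUM149 and MDA-MB-468 are basal-like. All cultures were starved of serum for 24 h and then kept for 48 h in serum-free medium alone (untreated) or with 5% wound-healing fluid (WHF), which drains from the breast after surgery. The fluid was a pool from several patients, and medium without it was the sole control, so that the untreated cells stayed without serum. Each line has 2 untreated and 2 WHF-treated cultures, labelled A and B, which makes 20 arrays in 10 groups. Signals are from whole cultures, in which fewer cells of a kind and less RNA per cell cannot be told apart.

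In cells, receptors coupled to stimulatory G proteins switch on adenylyl cyclases, which make cyclic AMP, and inhibitory subunits such as GNAI3 restrain them. Cyclic AMP activates protein kinase A, which A-kinase anchoring proteins such as AKAP12 hold near its targets, and the kinase phosphorylates the transcription factor CREB. Phosphodiesterases of families 4 and 7 hydrolyze cyclic AMP, arrestins turn off receptors and can carry a PDE4 enzyme to them, and ITPR2 releases calcium from the endoplasmic reticulum. In breast cells, this signaling follows adrenergic and prostaglandin receptors, among others.

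CREB binds the cyclic AMP response element, which was therefore looked up in the promoters of the members. RefSeq windows of 250 bases before a transcription start (GRCh38.p14) were found for 7 of the 10 genes, 25 windows in all. The full element, TGACGTCA, reads the same on both strands and was in 1 of the 25 windows, against 1.65% of 35116 windows of all genes. Its shorter form, TGACG on either strand (CGTCA on the reverse), which the full element contains, was in 4 of 25 windows, against 21.2% of all. Counted by gene, with any window of a gene, the full element was in 1 of 7, against 2.03% of 27305 genes. The shorter form was in 4 of 7 genes, against 24.9%. These shares by gene are not alike, since 7 members have 25 windows and all 27305 genes have 35116. A member thus had more windows in which a match could fall. No difference from these shares was tested. The full match lies 155 bases before the start of PDE7B. The window of PDE7B, which fell in 3 lines after WHF, is shown for this element, and that of GNAI3, which rose in 3 lines, beside it. Both lie on the forward strand, at chr6:135851451-135851700 and chr1:109548365-109548614. The full element is in capitals.
PDE7B: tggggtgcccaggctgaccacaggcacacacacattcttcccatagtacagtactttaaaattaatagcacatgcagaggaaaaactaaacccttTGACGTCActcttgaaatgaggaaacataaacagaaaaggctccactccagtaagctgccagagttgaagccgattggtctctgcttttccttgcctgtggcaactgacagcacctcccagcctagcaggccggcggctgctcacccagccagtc
GNAI3: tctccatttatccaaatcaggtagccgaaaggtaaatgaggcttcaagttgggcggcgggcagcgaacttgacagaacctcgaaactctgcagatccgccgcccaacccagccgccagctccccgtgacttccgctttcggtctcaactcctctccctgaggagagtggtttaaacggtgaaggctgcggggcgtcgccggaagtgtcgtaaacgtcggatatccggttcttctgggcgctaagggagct
The GNAI3 window holds neither form. A match is a description of letters and not a binding site, and these arrays do not measure binding.

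Values are log2 signals after background correction and quantile normalization, each probe against itself only. A probe counts as detected at a detection p under 0.05 against negative control beads. Between 19693 and 22865 probes were detected per array, with the fewest on the WHF-treated SUM149 array B. The lowest detected log2 signal lay between 5.5 and 5.84, so that values near these floors carry no order. That SUM149 array also stood apart from its replicate for several genes below, whose SUM149 changes are therefore given for pair A and pair B too. The lines lay on 3 chips, MDA-MB-231 alone, BT-549 with MDA-MB-157, and MDA-MB-468 with SUM149. WHF-treated and untreated arrays of a line always shared a chip. Of the cell identity markers, CDH1 was detected in both cultures of MDA-MB-468 and SUM149 and VIM in all lines. BT-549 lacked EPCAM, KRT8 and KRT18, which were detected in every other line. KRT5 and KRT14 were detected in MDA-MB-468 and SUM149, and KRT5 also in untreated BT-549. ZEB1 was detected in MDA-MB-231 and BT-549 alone. CDH2 had untreated means of 13.38 in BT-549, 11.09 in MDA-MB-157, 10.88 in SUM149 and 5.97 in MDA-MB-231. It was at background in MDA-MB-468. Not all markers thus followed the study's classes. ESR1 was detected in MDA-MB-468 and SUM149, PGR in MDA-MB-157 and ERBB2 in all 5 lines, at RNA level. Of 10 leukocyte and blood cell markers, 36 of 100 untreated and 33 of 100 WHF-treated readings were detected, with PTPRC, CD3E and HBA1 at background on all 20 arrays. Detected on every array were CD14 and PPBP. S100A8 had WHF-treated means of 15.04 for SUM149 and 15.31 for MDA-MB-468, against untreated means of 14.34 and 14.15. Its highest mean elsewhere was 6.37, for WHF-treated BT-549. Mean CD14 went from 9.40 to 11.82 after WHF for SUM149 and from 10.42 to 11.91 for MDA-MB-468. It was lower only for MDA-MB-231 (9.81 to 9.74). PPBP was highest in SUM149, at 11.69 untreated and 11.68 treated. By the methods, the fluids had been centrifuged, and the medium with fluid was filtered before it reached the cells. The summed level of the 10 markers ranged over the lines from 9.12 to 14.64 in untreated and from 9.25 to 15.47 in WHF-treated cells. Its part in the results below was not tested.

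A response in 1 line was called at an adjusted p under 0.1 (limma, Benjamini-Hochberg over 21189 probes) with more than a 2-fold change. Over 65 combinations of 13 member probes and 5 lines, 7 were called higher and 16 lower. In MDA-MB-231, 3 of 13 probes were called higher, against 2.74% of all tested probes, and 5 lower, against 3.81%. In BT-549, 3 were higher (4.49% of all) and 2 lower (6.34%). In MDA-MB-157, none was higher (1.03%) and 3 were lower (1.35%). MDA-MB-468 had no called member probe in either direction (0.821% and 0.774% of all). In SUM149, 1 was higher (3.82%) and 6 were lower (6.44%). Since the members were selected on these contrasts, nothing is read from the distance to those backgrounds. The median response of the 13 probes was −0.99 in SUM149, −0.83 in MDA-MB-231, −0.47 in MDA-MB-157, 0.03 in MDA-MB-468 and 0.30 in BT-549, beside medians of all probes between −0.004 and 0.022.

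**Figure D1:**
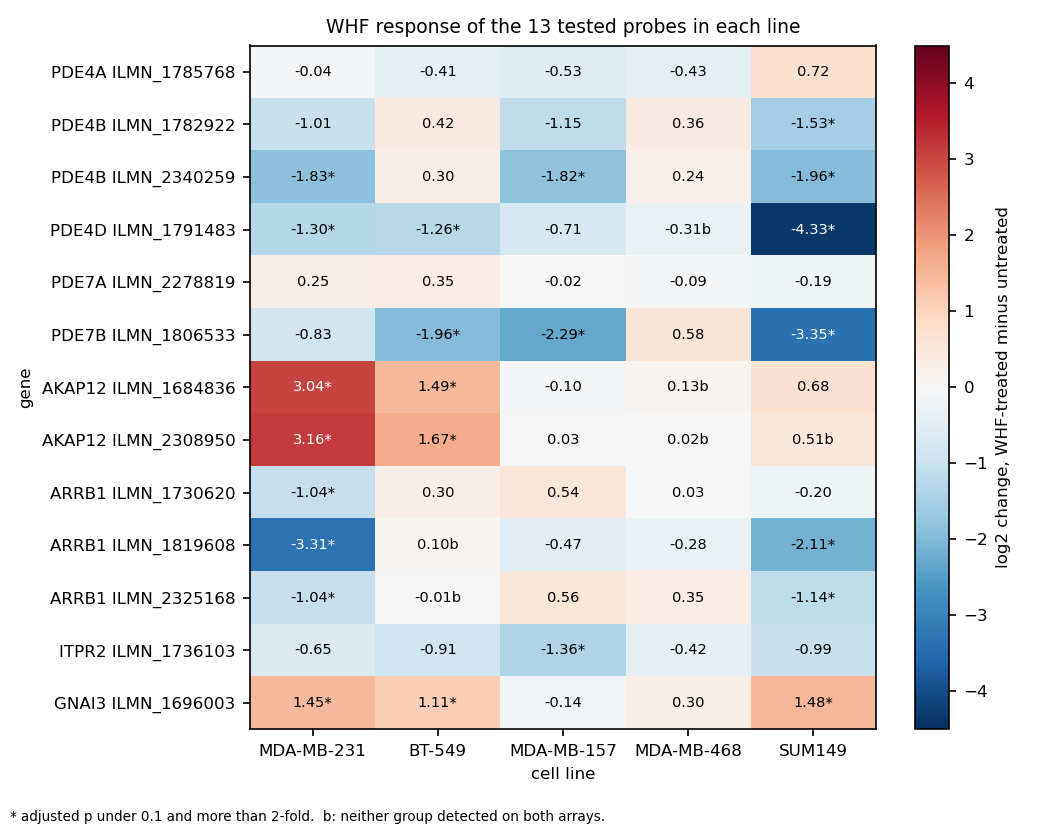
Log2 change, WHF-treated minus untreated, of the 13 tested probes (rows) in the 5 lines (columns), from the means of 2 cultures per group; red is higher and blue lower after WHF, and a star marks an adjusted p under 0.1 with more than a 2-fold change. The 7 higher calls belong to AKAP12 and GNAI3, the 16 lower calls to PDE4B, PDE4D, PDE7B, ARRB1 and ITPR2, and MDA-MB-468 has no star.

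Over the 5 lines together, with the line as a block and the mean of A and B as the unit, no member probe was called at an adjusted p under 0.1, against 0.0802% of all 21189 probes. By limma, 8 of the 13 had an unadjusted p under 0.05, as did 19.3% of all probes, and 4 changes were above 0 and 9 below. With the 10 pairs of cultures as blocks, which counts 2 pairs of 1 line as independent, 8 of the 13 probes were called. The share of all probes called with these blocks was not counted, so nothing is read from that number.

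PDE4D, a phosphodiesterase that binds arrestins and anchoring proteins, fell in SUM149, MDA-MB-231 and BT-549. In SUM149 its untreated cultures read 10.79 and 10.53 and its WHF-treated cultures 7.59 and 5.08, the last of them below background. The groups did not overlap, and both treated cultures lay far below both untreated ones. The log2 change was −4.33 ± 0.49 (SE, n = 2 and 2), with −3.20 in pair A and −5.45 in pair B. Here and below, the SE of a change in 1 line uses a spread pooled over all 10 groups. It is therefore the same in each line for a probe, and is not the spread of that line's own cultures. The treated SUM149 cultures had an SD of 1.78 for PDE4D. With the undetected culture held at the lowest detected signal of its array, the change was −3.95, or 15.4-fold. In MDA-MB-231, untreated cultures read 8.22 and 8.29 and WHF-treated cultures 7.07 and 6.85, a change of −1.30 ± 0.49. In BT-549, untreated cultures read 6.55 and 6.85 and treated cultures 5.70 and 5.19, only the first of which was detected, a change of −1.26 ± 0.49, or −1.0 with the undetected one held likewise. Groups were again apart in both lines, but these calls were lost without pair A and without pair B, and the BT-549 call was lost under 6 of 8 alternatives. MDA-MB-157 read 7.18 and 6.94 untreated and 6.20 and 6.49 after WHF, −0.71 ± 0.49, which was not called. In MDA-MB-468 the probe was below background on all 4 arrays. In the 4 lines with detected signals, PDE4D was lower in the WHF-treated culture of every pair.

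PDE4B, the PDE4 enzyme best known from leukocytes and inflammation, gave 2 informative probes of the same transcript, ILMN_2340259 and ILMN_1782922. With the first, untreated SUM149 read 13.96 and 13.54 and WHF-treated SUM149 read 12.71 and 10.86, a change of −1.96 ± 0.42. Array B again lay lower than array A, with −1.25 in pair A and −2.68 in pair B. MDA-MB-157 went from 8.35 and 7.91 to 6.13 and 6.49, a change of −1.82 ± 0.42, whose call was lost without either pair. In MDA-MB-231, untreated cultures read 7.06 and 7.25 and both treated cultures 5.32, which is below background, so that the signal was at least 2.65-fold lower. That call was lost without pair B, and without background correction. The 3 lines in which PDE4B fell thus include those with its lowest and its highest untreated signal. In BT-549, 10.33 and 10.29 became 11.06 and 10.17, while MDA-MB-468 went from 10.03 and 10.16 to 10.50 and 10.17. Changes there were 0.30 ± 0.42 and 0.24 ± 0.42 and were not called.

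The second PDE4B probe gave the same sign in all 5 lines. It was called in SUM149, where 12.68 and 12.35 became 11.89 and 10.08, a change of −1.53 ± 0.41, with −0.79 in pair A and −2.27 in pair B, and the call was lost without pair B. In MDA-MB-231 the treated cultures were below background, at least 1.63-fold lower than the untreated ones, and in MDA-MB-157 the change was −1.15 ± 0.41. Neither was called. Of the other PDE4B probes, that for a different transcript variant (ILMN_2296439) was detected only in untreated MDA-MB-157, at a mean of 6.42, and was at least 1.83-fold lower after WHF. It was not tested. The last (ILMN_2288976) was detected on 0 of 20 arrays.

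PDE4A, a further PDE4 enzyme, had no called response. It read 8.09 and 8.28 untreated and 8.22 and 8.07 treated in MDA-MB-231, where the groups overlapped. The change was 0.72 ± 0.27 in SUM149, −0.41 ± 0.27 in BT-549, −0.53 ± 0.27 in MDA-MB-157 and −0.43 ± 0.27 in MDA-MB-468. In SUM149 the cultures read 5.99 and 5.40 untreated and 5.90 and 6.93 treated, and the higher mean came from pair B alone (1.53, against −0.09 in pair A).

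**Figure D2:**
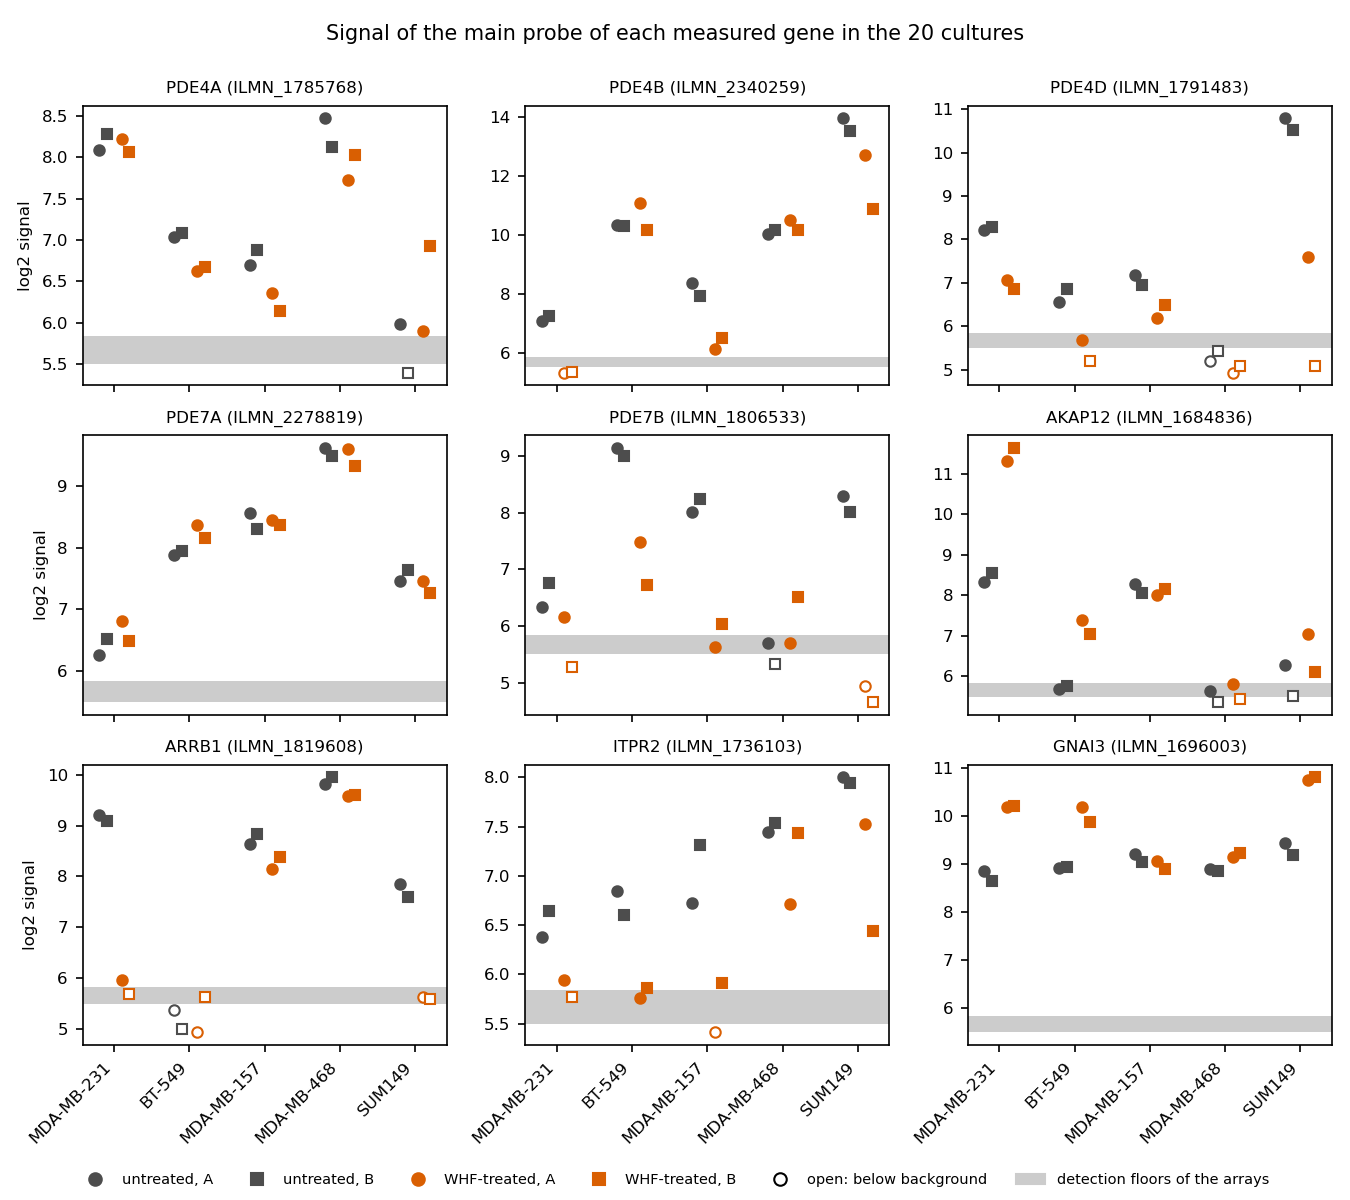
Log2 signal of the main probe of each of the 9 measured genes in the 20 cultures, by line; gray is untreated and orange WHF-treated, circles are replicate A and squares B, open symbols were below background, and the gray band spans the lowest detected signals of the arrays. PDE4D and PDE7B lie lower in treated cultures of most lines, AKAP12 and GNAI3 higher in MDA-MB-231 and BT-549, and the vertical scales differ between panels.

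PDE7B, a phosphodiesterase specific for cyclic AMP that PDE4 inhibitors do not block, fell in 3 lines. Untreated SUM149 cultures read 8.29 and 8.01 and both treated cultures, at 4.94 and 4.65, were below background, so that the signal was at least 5.20-fold lower. In MDA-MB-157, 8.02 and 8.25 became 5.64 and 6.04, a change of −2.29 ± 0.32 or 4.90-fold. In BT-549, 9.15 and 9.0 became 7.49 and 6.73, a change of −1.96 ± 0.32 or 3.90-fold. The groups did not overlap in any of these lines, and these 3 calls passed under all alternatives run. MDA-MB-231 went from 6.33 and 6.77 to 6.17 and 5.28, −0.83 ± 0.32, short of 2-fold. MDA-MB-468 stayed near the floor, at 5.70 and 5.33 untreated and 5.69 and 6.51 treated. In the other 4 lines, PDE7B was lower in the treated culture of every pair.

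PDE7A, its closest relative, moved little. Its detected probe changed by 0.35 ± 0.17 in BT-549, 0.25 ± 0.17 in MDA-MB-231, −0.02 ± 0.17 in MDA-MB-157, −0.19 ± 0.17 in SUM149 and −0.09 ± 0.17 in MDA-MB-468, with no call. A second PDE7A probe was detected on 6 of 20 arrays and was not tested.

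AKAP12 (gravin), a large membrane-associated scaffold that binds protein kinase A, protein kinase C and β-adrenergic receptors, rose in 2 of the 3 mesenchymal-like lines. In MDA-MB-231 its main probe read 8.33 and 8.55 in untreated and 11.32 and 11.64 in WHF-treated cultures, a change of 3.04 ± 0.28 or 8.21-fold. The probe for the other transcript variant, ILMN_2308950, went from 7.63 and 7.44 to 10.69 and 10.70, 3.16 ± 0.17 or 8.93-fold. The pairs were close, at 2.98 and 3.09 with the main probe and 3.06 and 3.26 with the other, and both calls passed under every alternative run. In BT-549 the main probe went from 5.69 and 5.76, close to the floor, to 7.39 and 7.04, a change of 1.49 ± 0.28. The other probe was below background in both untreated BT-549 cultures and read 6.5 and 6.63 after WHF, at least 1.89-fold higher. Both BT-549 calls were lost without background correction, where the changes were 0.68 and 0.75. In MDA-MB-157, AKAP12 read 8.28 and 8.06 untreated, near the untreated MDA-MB-231 level, and its treated cultures read 8.0 and 8.15, a change of −0.10 ± 0.28. In SUM149 the change was 0.68 ± 0.28, not called, and MDA-MB-468 was near or below background with both probes. Another probe (ILMN_1686846), not tested, read 7.18 and 6.87 in untreated and 8.87 and 8.80 in treated MDA-MB-231 cultures. In BT-549 it stayed near the floor, at 5.58 and 5.84 untreated and 5.90 and 5.72 treated, and the groups overlapped. The last (ILMN_1715532) is assigned to the same variant as ILMN_2308950 but was below background on all MDA-MB-231 arrays, at means of 5.22 untreated and 5.23 treated. It was detected in MDA-MB-157 alone and changed there by −0.26.

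ARRB1, which desensitizes G protein-coupled receptors and scaffolds signaling at endosomes, was called lower with 3 of 3 tested probes in MDA-MB-231 and with 2 of 3 in SUM149. With ILMN_1819608, assigned to a transcript sequence outside the RefSeq mRNAs, untreated MDA-MB-231 cultures read 9.21 and 9.09 and treated ones 5.97 and 5.70, the last below background. The change was −3.31 ± 0.21, or −3.27 (9.65-fold) with that culture held at the lowest detected signal of its array. The probes for the 2 RefSeq variants changed by −1.04 ± 0.20 (ILMN_1730620, from 8.96 and 9.24 to 8.01 and 8.10) and −1.04 ± 0.26 (ILMN_2325168, from 9.42 and 9.46 to 8.58 and 8.21). All 3 probes were lower in both pairs, and the first changed most. The 2 smaller changes were only just over 2-fold and were lost without pair B and with an offset of 50.

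In SUM149, ILMN_1819608 went from 7.85 and 7.61 to values below background, 5.64 and 5.59, at least 3.88-fold lower. ILMN_2325168 went from 7.48 and 7.22 to 6.72 and 5.69, the last below background. Its change was −1.14 ± 0.26, with −0.76 in pair A and −1.53 in pair B. The call was lost under 4 of 8 alternatives, among them the one without pair B. ILMN_1730620, however, read 7.69 and 7.40 untreated and 7.24 and 7.44 treated, overlapping groups with a change of −0.20 ± 0.20. In MDA-MB-157 the RefSeq probes changed by 0.54 ± 0.20 and 0.56 ± 0.26 and ILMN_1819608 by −0.47 ± 0.21, none of them called. In BT-549 only ILMN_1730620 was detected. Whether the probes measure different transcripts was not tested.

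**Figure D3:**
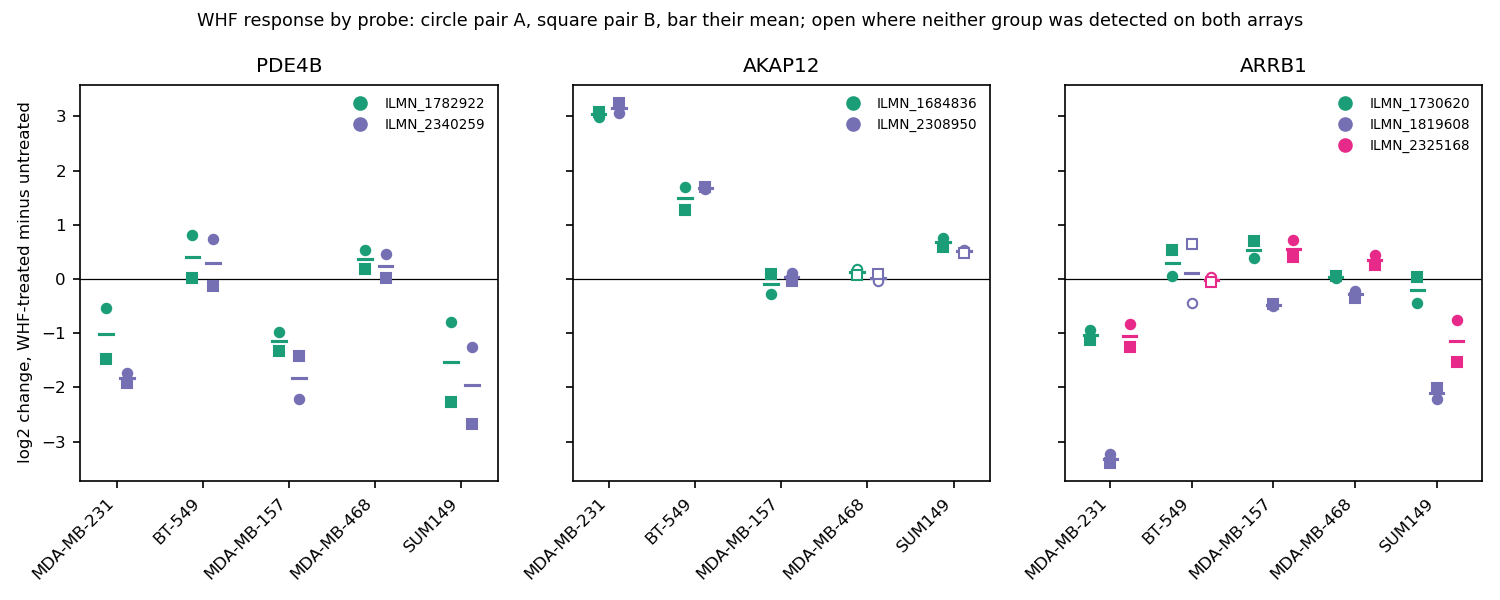
Log2 change, WHF-treated minus untreated, in pair A (circles) and pair B (squares) of each line, with their mean as a bar, for the tested probes of PDE4B, AKAP12 and ARRB1; open symbols mark lines in which neither group was detected on both arrays. The 2 probes of PDE4B and of AKAP12 follow each other, while ARRB1 ILMN_1819608 lies below the other 2 probes in MDA-MB-231 (−3.31 against −1.04 and −1.04) and in SUM149.

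ITPR2, a calcium release channel, was lower after WHF in 10 of 10 pairs, by modest amounts. In MDA-MB-157 it went from 6.73 and 7.31 to 5.42 and 5.91, of which the former was below background, a change of −1.36 ± 0.31, or −1.30 with that culture held at its array's lowest detected signal. This was its one call, and it was lost without either pair, without background correction and with an offset of 50. SUM149 went from 8.0 and 7.95 to 7.52 and 6.44, −0.99 ± 0.31, with −0.47 in pair A and −1.51 in pair B. BT-549 went from 6.84 and 6.60 to 5.76 and 5.86, −0.91 ± 0.31, and both lines were short of 2-fold. MDA-MB-231 changed by −0.65 ± 0.31 and MDA-MB-468 by −0.42 ± 0.31. Treated and untreated cultures did not overlap in any line. Over the 5 lines the mean change was −0.87 ± 0.16.

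GNAI3, an inhibitory G protein subunit that also takes part in cell division, was well above background on all 20 arrays and rose in 3 lines. SUM149 went from 9.43 and 9.18 to 10.76 and 10.80, a change of 1.48 ± 0.15 or 2.78-fold. MDA-MB-231 went from 8.84 and 8.65 to 10.19 and 10.20, 1.45 ± 0.15 or 2.73-fold. BT-549 went from 8.92 and 8.93 to 10.18 and 9.88, 1.11 ± 0.15 or 2.15-fold, a call that was lost without pair A (0.95) and without background correction (0.95). In each of these lines, both treated cultures lay above both untreated ones. In MDA-MB-468 the change was 0.30 ± 0.15, with both pairs higher, and in MDA-MB-157 it was −0.14 ± 0.15, with both pairs lower, and neither was called.

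Untreated levels were compared between lines with an F test over the 5 untreated means. These means share the untreated arrays with the responses known when the members were chosen, so the p-values are given as a description. All 13 probes differed between lines at an adjusted p under 0.1, as did 86.9% of all tested probes, so the count is no mark of the members. The adjusted p ranged from 8.5e-11 for ARRB1 ILMN_1819608 to 0.021 for GNAI3. Chip and line cannot be told apart except within the 2 chips that hold a pair of lines. Tested within chips alone, 12 of 13 probes differed, ITPR2 being the exception (adjusted p = 0.26).

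Pairs of lines were then compared probe by probe. Of 130 probe and pair combinations, 82 passed at an adjusted p under 0.1 and more than 2-fold, against 27.6% of those of all probes. Within chips, 6 of 13 probes differed between BT-549 and MDA-MB-157 (27.2% of all) and 7 of 13 between MDA-MB-468 and SUM149 (26.6%). The members were chosen with results of these arrays known, so these shares are given as a description.

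PDE4B followed the order SUM149, BT-549, MDA-MB-468, MDA-MB-157, MDA-MB-231, with 96.5-fold between the ends. BT-549 and MDA-MB-468 were not separated by the test (0.22 ± 0.42 log2, adjusted p = 0.69), nor did MDA-MB-157 and MDA-MB-231 pass 2-fold (adjusted p = 0.063). Within its chip, SUM149 was 12.6-fold above MDA-MB-468 (adjusted p = 2.5e-06) and BT-549 4.53-fold above MDA-MB-157 (adjusted p = 0.0004). PDE4D was highest in SUM149 and below background in MDA-MB-468, at least 33.7-fold apart on 1 chip (adjusted p = 2.4e-07), with MDA-MB-231, MDA-MB-157 and BT-549 between. PDE4B and PDE4D thus shared their highest line. PDE4A ran otherwise, highest in MDA-MB-468 and MDA-MB-231, which the test did not separate (adjusted p = 0.75), and lowest in SUM149, 6.10-fold below MDA-MB-468 (adjusted p = 8.0e-07).

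PDE7A was highest in MDA-MB-468, 3.99-fold above SUM149 (adjusted p = 9.8e-08), and lowest in MDA-MB-231. PDE7B had its highest mean in BT-549, though only 1.90-fold above SUM149 and 1.92-fold above MDA-MB-157, short of 2-fold, with SUM149 and MDA-MB-157 not separated from each other (−0.02 ± 0.32 log2, adjusted p = 0.97) and MDA-MB-468 lowest, 6.19-fold below SUM149 (adjusted p = 5.4e-06). AKAP12 was highest in MDA-MB-231 and MDA-MB-157, which were not separated (0.27 ± 0.28 log2 with the main probe), and near background in the other 3 lines. For ARRB1 the order depended on the probe. The RefSeq probes were highest in MDA-MB-231, where ILMN_1730620 was 2.69-fold (adjusted p = 2.0e-05) and ILMN_2325168 4.10-fold (adjusted p = 6.4e-06) above MDA-MB-468. ILMN_1819608 had its highest mean in MDA-MB-468, 1.66-fold above MDA-MB-231 and so short of 2-fold. ILMN_1730620 was detected in BT-549, while ILMN_1819608 was below background there, at least 8.57-fold lower than in its chip partner MDA-MB-157 (adjusted p = 1.5e-09). GNAI3 spanned 1.47-fold between SUM149 and MDA-MB-231, and ITPR2 spanned 2.76-fold between the same lines.

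The spread of the 5 line means also differed between treatments, as measured log2 means that include values below background. For PDE4D, it was 5.34 log2 units in untreated and 1.95 in WHF-treated cells, and for PDE7B 3.55 and 2.31. AKAP12 went the other way, from 2.95 to 5.85 with its main probe, and GNAI3 from 0.56 to 1.80. PDE4B kept its order of lines after WHF with both probes, with spreads of 6.59 and 6.46 for the main one. These differences follow from the responses above and were not tested.

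Of 225 other genes in 12 lists of the pathway, from receptors to CREB targets, 149 were tested with 1 probe each. None was called over the 5 lines, and by limma 14 were higher and 12 lower at an unadjusted p under 0.05. In SUM149, 6 were called higher and 17 lower, which is 4.03% and 11.4% of the 149, against 3.82% and 6.44% of all tested probes. MDA-MB-231 had 11 and 2 (7.38% and 1.34%, against 2.74% and 3.81%), and BT-549 had 11 and 10 (7.38% and 6.71%, against 4.49% and 6.34%). There were 1 and 3 in MDA-MB-157 (0.671% and 2.01%, against 1.03% and 1.35%) and 3 and 1 in MDA-MB-468 (2.01% and 0.671%, against 0.821% and 0.774%). The differences from these backgrounds were not tested. The median change over the lines was 0.05, beside 0.01 for all probes. The lists were written with earlier results of these data known.

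Upstream, MC1R, a Gs-coupled melanocortin receptor, had the largest moderated t of 15 tested receptors, at −0.85 ± 0.15 over the lines, and fell in SUM149 (−1.27). Of 20 G protein subunits, GNAQ was at 0.35 ± 0.13 over the lines and GNA12 at −0.43 ± 0.18. None was called higher in SUM149, BT-549 and MDA-MB-231 together as GNAI3 was, though GNAQ, GNA13 and GNG5 were above 0 in each of them. Of 15 RGS proteins and regulators, which shorten G protein signals, RGS10 was at 0.64 ± 0.16 and rose in SUM149 (1.32). Of 5 adenylyl cyclases and associated proteins, 1 was called, ADCY9, which fell in BT-549 (−1.62) and SUM149 (−1.20). In these lists, no gene was called over the 5 lines.

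Of 8 other phosphodiesterases tested, PDE8B, another enzyme specific for cyclic AMP, fell in MDA-MB-157 (−2.11), and PDE4DIP, which anchors PDE4D, rose in MDA-MB-231 (1.46). No member of the list was called in SUM149, the line in which PDE4B, PDE4D and PDE7B fell. Of 13 cyclic AMP effectors, among them the subunits of protein kinase A, none was called in any line, and POPDC3 had the largest moderated t (0.31 ± 0.11 over the lines). Of 12 other anchoring proteins, 3 were called higher in 1 line each, ARFGEF2 and AKAP7 in BT-549 and AKAP2 in MDA-MB-231, and AKAP8 lower in SUM149. Of 6 receptor kinases and arrestin partners, GRK6 was at 0.56 ± 0.16 over the lines and rose in SUM149 (1.02), and GRK4 was at −0.55 ± 0.15 with no call. PDE4DIP and GRK6 thus had a call in 1 line each.

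Of 21 genes of phospholipase C, inositol trisphosphate receptors and store calcium, the store-operated channel ORAI3 had the largest moderated t (−0.39 ± 0.17 over the lines) and fell in SUM149 (−1.01). PLCD1 was at 0.27 ± 0.13 and ITPR3 at 0.29 ± 0.15 over the lines, with no call. The other calls in this list were those of ITPR1, lower in BT-549 (−1.12) and SUM149 (−1.52), the kinase ITPKB, lower in BT-549 (−1.05) and MDA-MB-157 (−1.12), and 2 plasma membrane calcium pumps. Of these, ATP2B1 rose in MDA-MB-231 (1.29) and BT-549 (1.11), and ATP2B4 fell in BT-549 (−1.38). Diacylglycerol and protein kinase C genes had 9 of 11 tested members above 0 over the lines, with DGKD at 0.47 ± 0.14 and DGKH at 0.47 ± 0.15, and 1 higher and 1 lower call in single lines. CREB factors and coactivators had 5 of 13 called lower in SUM149, against 6.44% of all probes, among them the acetyltransferase EP300 (−2.02), and 1, CREM, called higher (1.57). EP300 read 7.22 in treated culture A and 5.69 in culture B, which was below background. Culture B also read lower than A for SIK3 (8.23 in A and 6.98 in B), CREBBP (8.71 and 7.69) and CRTC3 (9.91 and 9.05), all called lower. For CREB5, also called lower, both treated cultures were below background, at 5.54 and 5.56. The part of array B in the count was not tested.

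Of 11 CREB target genes, SUM149 had none called higher and 6 lower, against 3.82% and 6.44% of all probes, and MDA-MB-231 had 6 higher and none lower, against 2.74% and 3.81%. BT-549 had 4 and 2, MDA-MB-157 1 each, and MDA-MB-468 none. The difference between lines was not tested. FOS, an immediate early gene, was called lower in BT-549 (−2.20 ± 0.88), MDA-MB-157 (−3.08 ± 0.88) and SUM149 (−2.63 ± 0.88). Its pairs were far apart in BT-549, at −4.27 in A and −0.12 in B, and in SUM149, at −1.13 in A and −4.13 in B, and closer in MDA-MB-157, at −3.38 and −2.78. In MDA-MB-231, FOS was also lower in both pairs, at −2.43 in A and −1.92 in B. That change, −2.18 ± 0.88 or 4.52-fold, was not called. PTGS2, which makes prostaglandin precursors and was picked after its values were seen, went from 6.66 and 6.81 to 10.94 and 9.23 in BT-549, and from 12.51 and 11.98 to 10.79 and 9.75 in SUM149. It thus rose 10.2-fold in one line and fell 3.93-fold in the other. NR4A2, an orphan nuclear receptor picked likewise, rose 8.69-fold in BT-549 and fell 2.58-fold in SUM149. GEM, a small GTPase, rose in MDA-MB-231 (1.03, with 1.60 in pair A and 0.47 in pair B) and was above 0 in all 5 lines (0.63 ± 0.17 over them).

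**Figure D4:**
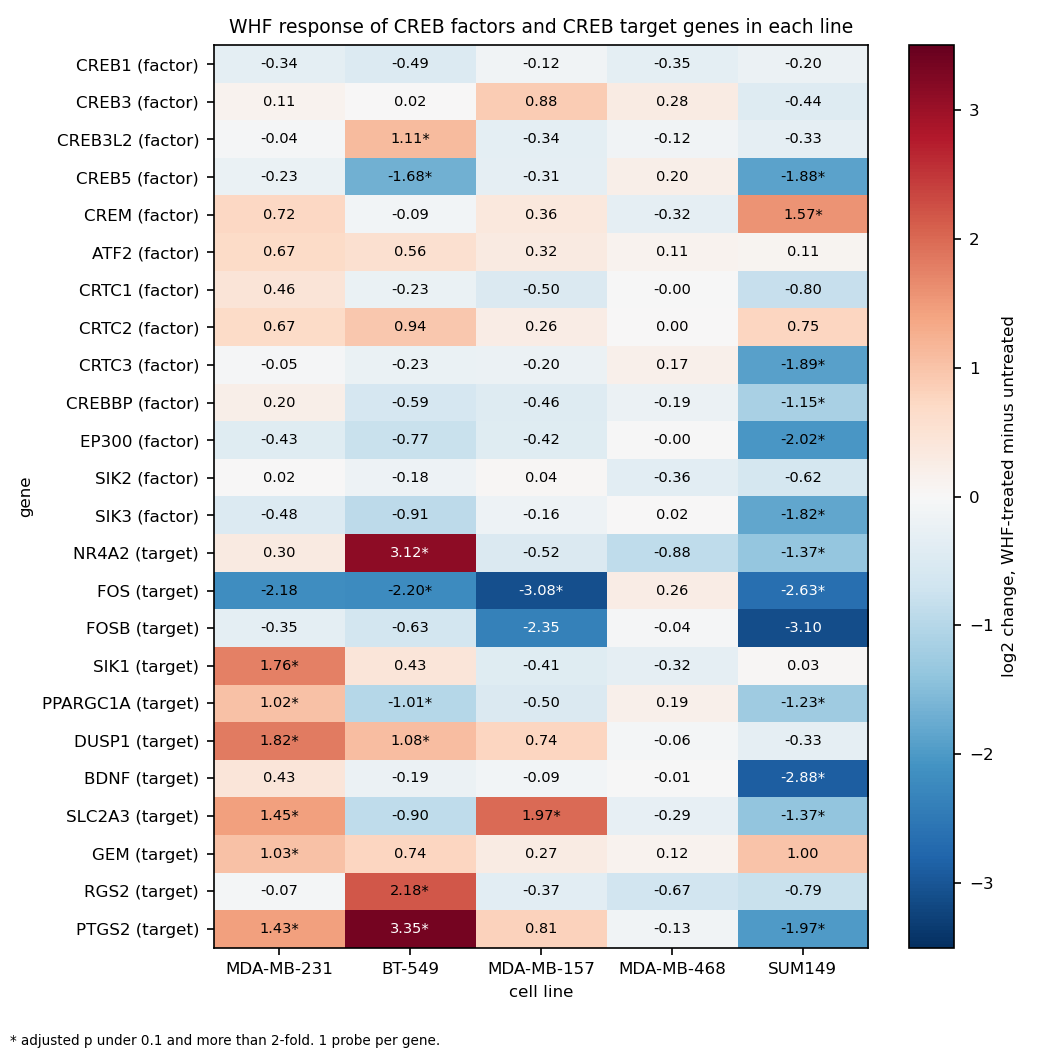
Log2 change, WHF-treated minus untreated, of 13 CREB factors and coactivators and 11 CREB target genes (rows, 1 probe per gene) in the 5 lines (columns), from the means of 2 cultures per group; a star marks an adjusted p under 0.1 with more than a 2-fold change. The target genes have 6 higher calls in MDA-MB-231 and 6 lower calls in SUM149, and MDA-MB-468 has none.

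The genes whose log2 signal followed each member most closely over the 20 arrays were named by Pearson r, as a description, since the arrays share 5 lines and 2 treatments. Over the 3 closest genes of each of the 9 members, r lay between 0.812 and 0.969. The closest were ZBTB44 for PDE4A (0.910), NFIB for PDE4B (0.952), PALLD for PDE4D (0.908), SEPTIN3 for PDE7A (0.969) and FAAP20 for PDE7B (0.827). For the others they were CLDND1 for AKAP12 (0.941), ZNF195 for ARRB1 (0.925), FAM111A for ITPR2 (0.893) and TAF5L for GNAI3 (0.949). RPS6KA5, a kinase of CREB, was second for PDE4A (0.901). Members were not candidates for each other, and none of the closest genes is on the 12 lists.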

How the data were processed

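RNA from 20 cultures of 5 established cell lines was hybridized to Illumina HumanHT-12 beadchips, and the authors extracted signals with BeadStudio, quality-checked them and normalized them with the quantile algorithm. The authors deposited 2 tables. The first holds the bead intensity per probe, neither normalized nor corrected for background, for 47319 probes, beside the deposited detection p-value, which sets a probe against negative control beads. The second holds the authors' quantile normalized intensity for 47323 probes and served as an alternative. Probes were named from the supplied platform annotation, which gives 1 symbol for 30112 probes and several for 8. It is of another version than the array the methods name, which can affect which probes carry a name.

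From the bead intensities, background was corrected by the normexp model with detection p-values in limma 3.58.1 (R 4.3.3), with quantile normalization next and a log2 of the result, at an offset of 16. A probe was tested if 10 or more of the 20 arrays had its detection p below 0.05, which left 21189 probes of 11864 genes. This filter can pass a probe through the group in which it is high.

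Responses in single lines came from 1 limma fit of 10 groups, and responses over the lines from means of A and B with the line as a block. Untreated lines were compared by an F test. P-values were adjusted over all 21189 probes by Benjamini-Hochberg at 0.1, with more than a 2-fold change required in single lines and pairs of lines, and detection on both arrays of at least 1 group for a response. Where a probe was below background on every array of a group, the fold is a lower bound. It sets the mean of the brighter group against the higher, per array, of the dim signal and the lowest detected signal. Holding a single undetected array of a group at that floor was an alternative chosen after seeing the data. SEs are from these fits. Precision is limited by the number of arrays and by the signal over background.

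All probes with the symbol of a member were named, and the main probe of a gene is the one with the highest mean signal. Of each of 12 pathway lists the text names up to 3 genes by the moderated t over the lines. Other genes of the lists with a call in a single line were picked after their values were seen. The members, the lists, the tests and the rules were chosen with earlier results of these data known. The methods call the second set of cultures an independent preparation, so the letters pair a WHF-treated with an untreated culture of a line. The correlation over probes of the 2 arrays' deviations from their groups' means was 0.30 in MDA-MB-157, 0.23 in MDA-MB-468, 0.16 in SUM149, 0.059 in BT-549 and 0.04 in MDA-MB-231. P-values in single lines and between untreated lines rest on the spread between cultures, pooled over all groups. Those over the lines rest on how the response varied between lines, since A and B were averaged first. The tests were tried on simulated data with known changes. Alternatives were other background and offset settings, the authors' normalized intensities, other filters and scaling, the replicate block, the chip, and leaving out each pair or line.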

Additional observations from a re-analysis of the deposited data

Results flagged for a closer look

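For 6 probes of 4 member genes, both pairs of 1 line moved up and both pairs of another moved down. These differences between lines were not tested, and each gap below is the widest between such lines for its probe. For PDE4B, the gap was 2.20 log2 units with ILMN_2340259, between MDA-MB-468 (0.24) and SUM149 (−1.96), and 1.94 with ILMN_1782922, between BT-549 (0.42) and SUM149 (−1.53). For ARRB1, it was 1.59 with ILMN_1730620, between MDA-MB-157 (0.54) and MDA-MB-231 (−1.04), and 1.70 with ILMN_2325168, between MDA-MB-157 (0.56) and SUM149 (−1.14). For GNAI3, it was 1.62, between SUM149 (1.48) and MDA-MB-157 (−0.14). For PDE7A, it was 0.54, between BT-549 (0.35) and SUM149 (−0.19), where no line's change was called. In 5 of these 6 comparisons the 2 lines lie on different chips, which cannot be told apart from the line, and PDE4B ILMN_2340259 is the exception.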

How the results depend on the processing

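None of the 23 changes called in single lines, nor of the 8 over the lines at an unadjusted p under 0.05 (limma), turned its direction under an alternative run. Of the 23 changes called in single lines, 11 passed under every alternative and 12 were lost under at least 1. Over all their 188 alternatives, 147 kept the call and 41 lost it. In 5 of the 23 changes, 1 culture was undetected in the dimmer group. Holding it at the lowest detected signal of its array was an alternative chosen after seeing the data and not among the 188. It made each of these changes smaller, from −4.33 to −3.95 for PDE4D in SUM149 and from −1.26 to −1.0 for PDE4D in BT-549. The smallest move was that of ARRB1 ILMN_1819608 in MDA-MB-231, from −3.31 to −3.27. In MDA-MB-231, 8 member probes were called, 4 without the normexp step and 4 with the authors' normalized intensities. In BT-549, 5 were called, 1 without the normexp step and 1 with the authors' intensities. These 2 alternatives leave background in the signal, and several changes of dim probes then fell under 2-fold. With the filter set to detection on all 20 arrays, 3 member probes were left, of which 1 was called in SUM149 (main count 7), 0 in MDA-MB-157 (main count 3), 1 in BT-549 and 2 in MDA-MB-231, and 3 differed between untreated lines. Leaving out pair A or B gave 5 to 9 calls in SUM149, 4 to 8 in MDA-MB-231, 3 to 4 in BT-549 and 1 without A and 1 without B in MDA-MB-157. The remaining pair was then assumed to vary as the other lines do. Over the 5 lines, 0 were called under all alternatives except the replicate block, under which 8 were, with no share of all probes counted beside them. That block changed no call in a single line to a lost one, and its counts there were 7 in SUM149, 9 in MDA-MB-231, 4 in MDA-MB-157, 5 in BT-549 and 0 in MDA-MB-468. With 2 cultures per group and a floor near the signals of PDE7B, AKAP12 and PDE4D in several lines, the size of those changes is the least certain.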
